A study of Mus musculus with 23 samples.

Results

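The comparison described here set the spleen of mice given acetate against the spleen of mice on the control diet, over every gene-start window of the spleen table. It used 8 of the 23 libraries of the study, 4 acetate and 4 control, chosen by their titles. The table holds 41388 windows of 3 kb around transcription start sites, of which 24871 had enough reads to be tested, 16517 fell below the filter on low counts. In 4872 windows none of the 8 libraries had a read. All animals were male C57Bl/6 mice that were housed individually. The controls received a diet without resistant starches, and the acetate group received 100 mM magnesium acetate in its drinking water. Each regimen ran from 3 weeks before the mice were fitted with a minipump until the study ended. The labels do not say what the minipump delivered, nor which solid diet the acetate group ate. The other spleen libraries, 4 from mice on a diet rich in resistant starches (high fibre), entered the fit to share its estimate of the spread and are set beside the 8 libraries for single genes and in 1 comparison over all windows. Libraries of the left ventricle (3 acetate, 4 control, 4 high fibre) were set beside the spleen for single genes and in fits over all windows. The labels do not state that the libraries of a group came from separate mice, so every p-value measures the spread between these libraries.

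In mammals DNA methylation sits mainly on cytosines of CpG dinucleotides, where it is copied at replication by Dnmt1, laid down afresh by Dnmt3a and Dnmt3b, and removed through oxidation by the Tet enzymes. Promoters rich in CpG are mostly unmethylated in normal tissue, while promoters of germline genes are commonly methylated outside the germline. Acetate is a short-chain fatty acid that gut bacteria release from fibre; it binds the receptors Ffar2 and Ffar3, which leukocytes and other cells carry, and Acss2 turns it into acetyl-CoA, the donor for histone acetylation. The spleen holds B cells, T cells, macrophages and red-pulp erythroid cells within a stromal frame. Here sheared genomic DNA was enriched with MethylMiner, which pulls down fragments through a methyl-CpG-binding protein, and sequenced. A window with more reads held more captured DNA. Its count therefore reflects methylation, CpG number and copy number together and is not a methylation percentage. Since a whole spleen mixes cell types, a shift in cell proportions and a change of methylation within cells cannot be told apart.

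Promoter sequences are shown for the windows that the results below turn on and that the RefSeq table (build GRCm38.p6) lists. Each runs over the 250 bases before the transcription start, from 5′ to 3′ on the gene's strand, with every CG dinucleotide, the unit that the capture protein binds when methylated, in capitals. Tbc1d2b (chr9:90270770-90271019, minus strand) had the smallest p-value of the comparison, Mtmr2 (chr9:13748929-13749178, plus strand) the smallest of the named genes that were higher, and Ffar2 (chr7:30823776-30824025, minus strand) and Ffar3 (chr7:30856179-30856428, minus strand) encode the acetate receptors.
Tbc1d2b: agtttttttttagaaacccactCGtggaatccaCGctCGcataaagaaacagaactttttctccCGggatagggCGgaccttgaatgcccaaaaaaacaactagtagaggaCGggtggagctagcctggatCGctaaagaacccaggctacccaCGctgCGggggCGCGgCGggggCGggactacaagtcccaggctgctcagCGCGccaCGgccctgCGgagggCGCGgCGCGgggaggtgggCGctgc
Mtmr2: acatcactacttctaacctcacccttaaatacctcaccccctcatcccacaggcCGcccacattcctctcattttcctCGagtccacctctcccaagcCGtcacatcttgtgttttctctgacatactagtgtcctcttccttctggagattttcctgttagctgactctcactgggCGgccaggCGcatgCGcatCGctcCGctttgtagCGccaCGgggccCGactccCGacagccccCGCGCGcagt
Ffar2: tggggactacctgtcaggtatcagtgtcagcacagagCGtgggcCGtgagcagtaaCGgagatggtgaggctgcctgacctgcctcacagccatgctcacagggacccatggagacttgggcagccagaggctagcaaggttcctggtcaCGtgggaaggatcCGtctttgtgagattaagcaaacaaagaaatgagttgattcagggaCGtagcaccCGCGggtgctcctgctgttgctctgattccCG
Ffar3: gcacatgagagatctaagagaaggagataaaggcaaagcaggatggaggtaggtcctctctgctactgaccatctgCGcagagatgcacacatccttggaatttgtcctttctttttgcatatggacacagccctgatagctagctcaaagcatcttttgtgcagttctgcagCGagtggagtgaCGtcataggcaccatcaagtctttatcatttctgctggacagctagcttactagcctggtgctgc
The stretch of Tbc1d2b holds 22 CG, and 87.0% of the 27025 promoters in the table hold as few or fewer. Mtmr2 holds 15 (74.4% of promoters), Ffar2 holds 9 (61.8%) and Ffar3 holds 3 (38.1%), beside a median of 6 over all promoters. RefSeq lists 3 start sites for Mtmr2 and 4 for Ffar2, and the stretch before the site given in the table is shown.

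The acetate libraries held 7.22, 4.36, 4.83 and 8.01 M (mega) reads in windows (mean 6.11 ± 1.78, SD, n = 4), and the controls 7.58, 9.11, 9.87 and 7.34 M (8.48 ± 1.21, SD, n = 4). Acetate replicates 2 and 3 were thus the shallowest of the 8. The window of Gm10800, a predicted gene with satellite-like sequence, took 51.9% ± 2.69 of an acetate library and 55.8% ± 2.84 of a control library (SD, n = 4 each). Outside the 5 windows with the most reads, 1.85 to 3.73 M reads remained in the acetate group and 2.62 to 3.85 M in the controls. None of 5 library-wide measures (total count, share of Gm10800, share of the top 1% of windows, share of windows without reads, and germline minus housekeeping signal) differed beyond the spread: exact two-sided permutation p-values ran from 0.0857 to 0.743, and from 0.190 to 0.743 after Benjamini-Hochberg adjustment, where 4 against 4 cannot go below 0.0286. Acetate libraries correlated with controls (median Pearson r of log2 CPM across windows 0.958) about as much as acetate libraries did among themselves (0.951) or controls did (0.964). The lists of cell type markers measure captured DNA, not RNA, so the tissue label was checked against the heart controls. In control spleen 13 of 23 B cell genes were lower than in control heart and 2 higher, and of 27 T and NK cell genes 14 were lower and 5 higher, at an adjusted p under 0.05 by edgeR. Of 28 cardiomyocyte genes 9 were lower and 15 higher in spleen, while of all 33982 windows 72.7% differed, 40% lower and 32.7% higher. The myeloid list (36 tested) had 15 lower and 11 higher, and that of regulatory and helper T cells (35 tested) 17 and 11. Erythroid and platelet genes (23 tested) had 6 lower and 8 higher, and splenic stroma and endothelium (27 tested) 10 and 11. Imprinted genes (18 of 30) and germline genes (34 of 36) were often higher in spleen too. The check was thus mixed, and the higher cardiomyocyte count was not particular to that list.

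Acetate was not accompanied by a difference at any single window that passed the test. By edgeR's quasi-likelihood test 0 of 24871 windows (0%) reached an adjusted p under 0.05, and 872 (3.51%) had an unadjusted p under 0.05, 465 of them higher (1.87%) and 407 lower (1.64%) with acetate. The smallest adjusted p was 0.191, at Tbc1d2b. In 663 windows (2.67%) the 4 acetate libraries did not overlap the 4 controls in CPM (reads per M reads of the normalised library size), 323 higher (1.3%) and 340 lower (1.37%). The median log2 fold change over all tested windows was -0.0050, and its 5th and 95th percentiles were -0.30 and 0.47. The data bounded the difference best where reads were plentiful. The 95% interval of the fold change stayed within 1.5-fold for 14485 windows (58.2%) and within 2-fold for 21686 (87.2%), and its median half-width on the log2 scale was 0.83 in the least abundant 10% of windows and 0.26 in the most abundant. For comparison, high fibre against the same control libraries gave 0 calls and 502 windows (2.02%) at an unadjusted p under 0.05. DESeq2, run as an alternative, called 1 window, Tbc1d2b.

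**Figure D1:**
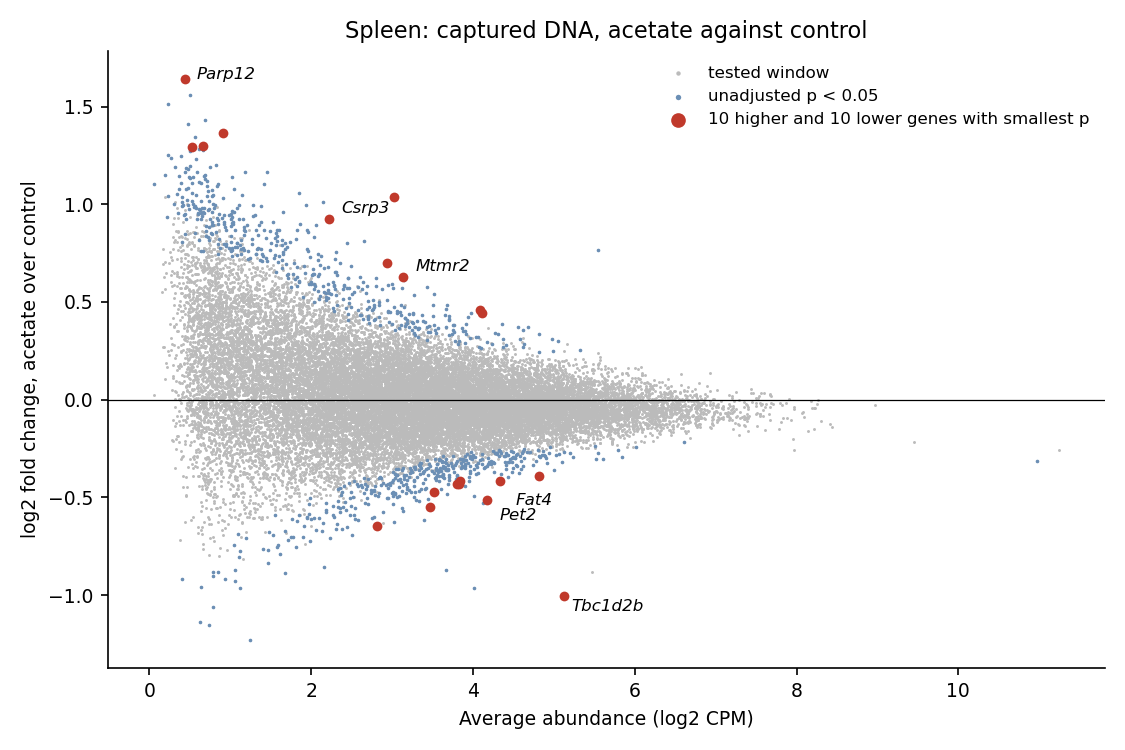
Log2 fold change of acetate over control spleen (y axis) against mean abundance in log2 CPM (x axis), a point per tested window, blue for an unadjusted p under 0.05 and red for the 20 named genes with the smallest p-values. The cloud narrows from left to right, Tbc1d2b lies far below it at -1.002, and the windows of Gm10800, Gm10801 and Gm21738 lie beyond the axis and are not drawn.

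Tbc1d2b encodes a protein of the TBC family, whose members act on Rab GTPases in membrane traffic. Its window (ENSMUSG00000037410, gene on chromosome 9 from 90202047 to 90270772, GRCm38.p6) gave 16.4, 18.96, 23.2 and 25.6 CPM in the acetate libraries, from 120, 93, 120 and 230 reads. The controls gave 42.3, 39.9, 46.1 and 42.0 CPM, from 281, 405, 418 and 283 reads. All 4 acetate libraries were below all 4 controls, with a gap wider than the range of either group. Mean signal was 21.04 ± 4.13 against 42.6 ± 2.61 CPM (SD, n = 4 each), a log2 fold change of -1.002 (SE 0.18, 95% interval -1.37 to -0.63), with an adjusted p of 0.191 (7.681e-06 before adjustment) by edgeR's quasi-likelihood test. That adjusted p was below 0.05 under 9 of the 26 alternative settings run, among them DESeq2 (0.0216), the fit on the 8 libraries alone (0.00557) and the fit without high fibre replicate 4 (0.00598). It was 1.00 without acetate replicate 1, without acetate replicate 2 and without control replicate 3, while the log2 fold change stayed between -1.13 and -0.90 over all 12 fits that left out a library.

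The high fibre libraries of the spleen gave 47.4, 51.0, 37.8 and 22.2 CPM at Tbc1d2b. Replicates 1 to 3 lay near the controls, and replicate 4 lay within the acetate range. The titles carry a number besides the diet: the acetate libraries are 11, 12, 17 and 18, high fibre replicate 4 is 16, the controls are 1 to 4 and the other high fibre libraries are 6, 7 and 8. Spleen libraries numbered 11 or more gave 16.4 to 25.6 CPM (median 22.2, n = 5), and those numbered 8 or less gave 37.8 to 51.0 CPM (median 42.3, n = 7). The split by number was thus complete at this window, high fibre included. In heart the libraries numbered 11 or more, which are 3 acetate and high fibre replicate 4, gave 40.0 to 58.4 CPM (n = 4), against 62.4 to 86.9 CPM in the others (n = 7). With a covariate for a number above 10, chosen after seeing the data, the acetate log2 fold change in spleen was 0.03. Only high fibre holds numbers on both sides, so that fit rests on its replicate 4 against its other libraries. As this library had been seen to lie within the acetate range, the value does not separate number from acetate. The labels do not say what the number marks, and because every acetate library of the spleen is numbered 11 or more and every control 4 or less, number and acetate cannot be told apart within this comparison.

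The windows next to Tbc1d2b were looked at after its values were seen. Gm22866, a pseudogene 81.2 kb from Tbc1d2b on the side of its start, gave 9.02, 8.77, 9.28 and 12.4 CPM with acetate and 21.1, 17.03, 19.3 and 21.99 in the controls. Gm22717, a pseudogene 45.1 kb away on the same side, gave 9.98, 5.91, 9.09 and 6.34 CPM with acetate and 9.17, 15.8, 17.4 and 15.2 in the controls. Both were about as far below control as Tbc1d2b, with log2 fold changes of -0.96 (SE 0.21, 95% interval -1.39 to -0.53) for Gm22866 and -0.87 (SE 0.22, 95% interval -1.33 to -0.41) for Gm22717 and adjusted p-values of 0.999 by edgeR; only the second overlapped, through control replicate 1. On the other side lies Adamts7, a metalloprotease gene whose nearer end, at 90200102, is 1.9 kb from that of Tbc1d2b. The Tbc1d2b window lies at the far end of that gene, at its start near 90270772, so the windows are much further apart than that. The Adamts7 window gave 70.7 ± 9.49 and 74.1 ± 15.04 CPM (log2 fold change -0.06, 95% interval -0.35 to 0.22). Ctsh, the lysosomal protease cathepsin H, had a log2 fold change of -0.14 (95% interval -0.39 to 0.12). The low signal thus covered 3 tested windows on 1 side and did not extend to the windows of Adamts7 and Ctsh. High fibre replicate 4 was low at Gm22866 too, at 8.17 CPM against 16.1 to 23.1 in the other high fibre libraries.

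The heart showed the same order at these windows. Heart acetate libraries gave 58.4, 40.0 and 47.0 CPM at Tbc1d2b and heart controls 62.4, 78.8, 86.9 and 83.5 CPM. The heart log2 fold change was -0.69 (SE 0.18, adjusted p = 1.00 by edgeR, 0.000982 before adjustment), and the spleen effect minus the heart effect was -0.34 (SE 0.29), so a difference between the tissues was not shown. At Gm22866 the heart log2 fold change was -1.17 (SE 0.24). Over all windows the acetate effect differed between spleen and heart at 0 of 33982 (0%) by edgeR, with 1553 (4.57%) at an unadjusted p under 0.05, and heart alone gave 0 of 33562 with 840 (2.5%) unadjusted.

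**Figure D2:**
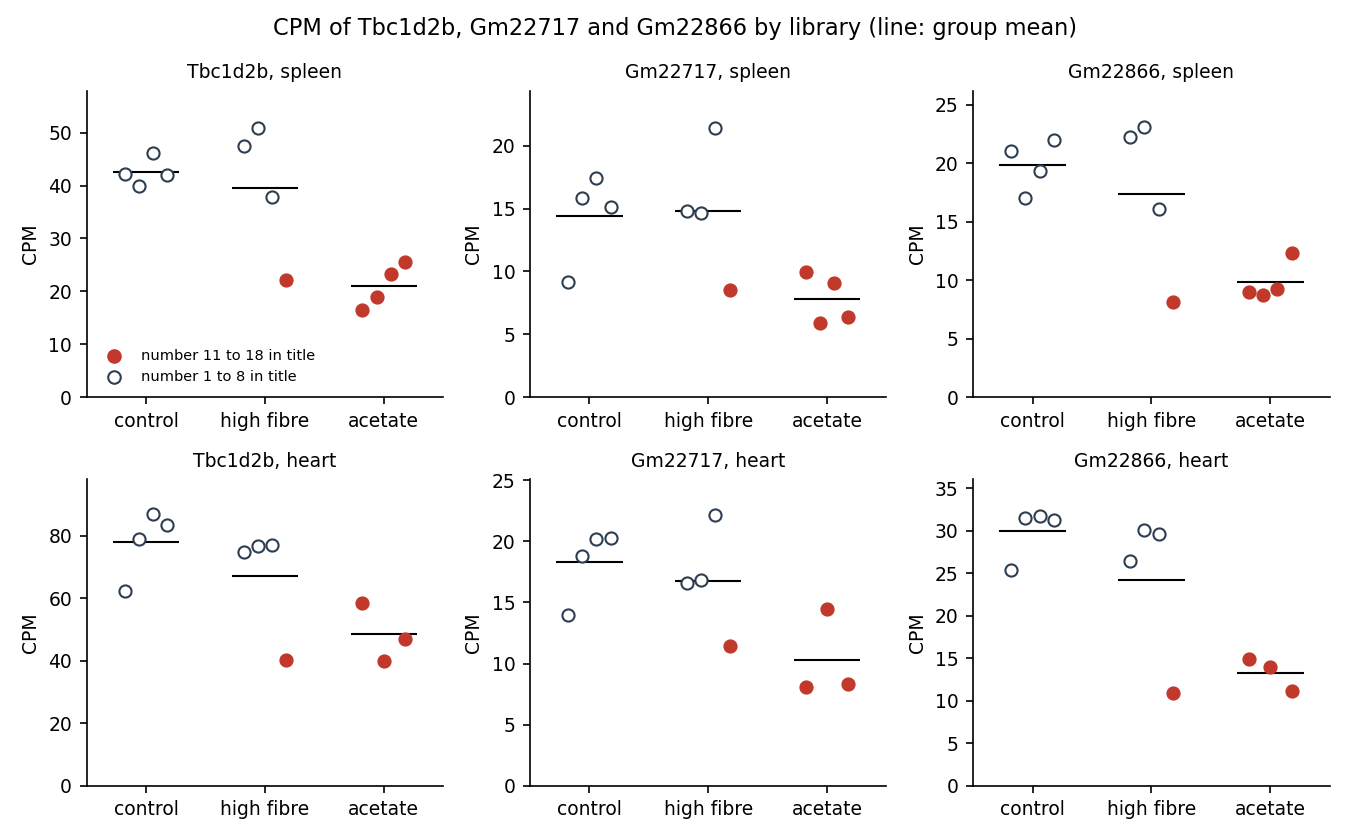
CPM of the windows of Tbc1d2b, Gm22717 and Gm22866 in spleen and heart by diet, a point per library, filled for numbers 11 to 18 in the title and open for 1 to 8, and a line at the group mean. At Tbc1d2b in spleen the acetate points lie between 16.4 and 25.6 CPM and the controls between 39.9 and 46.1, and the lowest high fibre point is replicate 4.

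Of the windows with higher signal, the 10 named genes with the smallest p-values had log2 fold changes from 0.45 to 1.64, and none passed the adjusted threshold (adjusted p = 0.999 each, edgeR). Because they were picked for their p-values in this contrast, their fold changes and the 8 of 10 whose groups did not overlap (1.3% of all windows in this direction) are a description only. Mtmr2, a phosphatase of membrane phosphoinositides whose promoter is printed above (ENSMUSG00000031918, chromosome 9, 13747260 to 13808896), gave 10.3, 9.79, 13.1 and 8.57 CPM with acetate and 6.77, 6.99, 6.29 and 6.24 CPM in the controls. The controls were tightly grouped and every acetate library lay above them, but the 4 high fibre libraries (8.43 to 9.41 CPM) lay above the controls as well. The log2 fold change was 0.63 (SE 0.16, 95% interval 0.29 to 0.96), and the start of Gm39291 lies within 3 kb, so that the windows may share reads. Wapal, the cohesin release factor, gave 10.1, 12.4, 9.28 and 8.01 CPM with acetate and 4.96, 5.51, 6.40 and 6.98 in the controls (log2 fold change 0.70, SE 0.21). High fibre libraries at Wapal ranged from 3.93 to 9.45 CPM and so spanned both groups.

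Csrp3, the muscle LIM protein, gave 5.196, 6.32, 10.1 and 4.23 CPM against 2.41, 4.13, 2.65 and 3.42 (log2 fold change 0.93, SE 0.26), with the groups just separated. Traip, a ubiquitin ligase of replication stress, gave 17.4 to 20.4 CPM against 11.3 to 15.2 (0.46, SE 0.14). Lhfpl5, a subunit of the hair cell transduction channel, gave 22.8, 14.3, 22.04 and 21.7 CPM against 14.0 to 15.9, where acetate replicate 2 lay among the controls.

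The larger fold changes belonged to windows with few reads. Parp12, an interferon-inducible ADP-ribosyltransferase, had the highest log2 fold change of the named genes, 1.64 (SE 0.50), from 7, 18, 7 and 13 reads with acetate and 1, 5, 6 and 1 in the controls. Ddit4, a stress-induced inhibitor of mTORC1, gave 10, 17, 14 and 25 reads against 5, 8, 10 and 4 (1.36, SE 0.39). Diap2, a formin, gave 13, 12, 19 and 11 against 4, 8, 6 and 6 (1.30, SE 0.40). Each of these 3 genes lay under 3 CPM in the controls, where the counting error of a few reads is large. Windows this low can also pass the filter on low counts through the acetate libraries alone, which favours higher signal with acetate. Their high fibre libraries overlapped the acetate range, with Parp12 at 0.519 to 3.39 CPM and Ddit4 at 0.596 to 2.497 CPM. Among windows above the median abundance the separated genes with the largest fold changes were Slc35d3, a member of a nucleotide sugar transporter family (12.8 ± 2.28 against 8.57 ± 1.95 CPM, log2 fold change 0.58), Nelfb, a subunit of the negative elongation factor (11.2 ± 1.15 against 7.57 ± 1.13, 0.54), Zfp740 (0.46), Traip (0.46) and Habp4 (0.44). The windows of Wapal, Parp12 and Zfp740, and those of Fat4 and Ppm1e below, also have the start of another gene within 3 kb and may share its reads.

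The named windows with lower signal were better covered, with control means of 8.0004 to 42.6 CPM beside 0.363 to 14.9 CPM for the 10 higher ones. Apart from Tbc1d2b their log2 fold changes ran from -0.65 to -0.39, each with an adjusted p of 0.999 by edgeR, and in all 10 the groups did not overlap (1.37% of all windows in this direction), again by the way they were picked. Pet2, an X-linked gene (ENSMUSG00000035395), gave 14.8, 13.0, 15.7 and 13.9 CPM with acetate and 22.9, 23.03, 18.9 and 17.5 in the controls. Acetate libraries stayed within a narrow band below every control, and of the high fibre libraries 1 lay in the acetate range, at 15.4 CPM, and 3 in the control range, at 18.7 to 19.7 CPM (log2 fold change -0.51, SE 0.13, 95% interval -0.79 to -0.24). C5ar1, the receptor for complement fragment C5a on neutrophils and macrophages, gave 11.1, 11.6, 13.3 and 12.4 CPM against 15.2, 16.04, 17.002 and 16.5. High fibre libraries (12.5 to 14.3 CPM) lay between and partly within the acetate range (-0.42, SE 0.13, 95% interval -0.68 to -0.16). Cyp2d22, a cytochrome P450, gave 8.21 ± 1.70 against 12.2 ± 1.79 CPM (-0.55, SE 0.17), and Ppm1e, a phosphatase, 5.01 ± 1.39 against 8.0004 ± 0.441 CPM (-0.65, SE 0.20).

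At 4 of the 10 lower genes, and at 0 of the 10 higher ones, the acetate libraries lay apart from all 8 other spleen libraries, which over all tested windows was the case at 55 lower (0.221%) and 49 higher (0.197%). Since the 20 genes were picked for small p-values in this contrast, the counts are a description. Pou3f3os, a long noncoding RNA gene, gave 21.3 to 24.3 CPM with acetate beside 27.4 to 32.2 in the controls and 28.2 to 32.7 with high fibre (log2 fold change -0.39, SE 0.11). Prx, the myelin protein periaxin, gave 10.3, 12.4, 12.4 and 11.6 CPM against 15.6, 16.3, 15.9 and 15.004, with high fibre from 12.9 upward (-0.43, SE 0.13). Fat4, an atypical cadherin, gave 15.9, 15.9, 15.1 and 17.6 CPM against 21.8, 20.6, 23.4 and 20.9, with high fibre from 18.3 upward (-0.42, SE 0.13). Adam2, a sperm surface protein, gave 10.1 to 12.2 CPM against 13.2 to 17.4 (-0.43, SE 0.13). Omg, a myelin glycoprotein, was the other lower gene chosen by fold among abundant windows, at 7.80 ± 0.689 against 11.3 ± 1.08 CPM (-0.51), and the pseudogene Tpt1-ps5 gave 9.42 ± 1.57 against 13.2 ± 1.18 CPM (-0.47), where reads of similar copies cannot be assigned with certainty.

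In heart the direction was shared by 6 of the 10 higher and 5 of the 10 lower genes. Fat4 had heart log2 fold change 0.29, Pet2 0.17 and Pou3f3os 0.18, opposite in sign to spleen, and the spleen effect minus the heart effect was -0.74 for Fat4, -0.72 for Pet2 and -0.59 for Pou3f3os. At Parp12 that difference was 1.73. None of these differences passed adjustment over all windows (adjusted p = 1.00 each, edgeR).

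**Figure D3:**
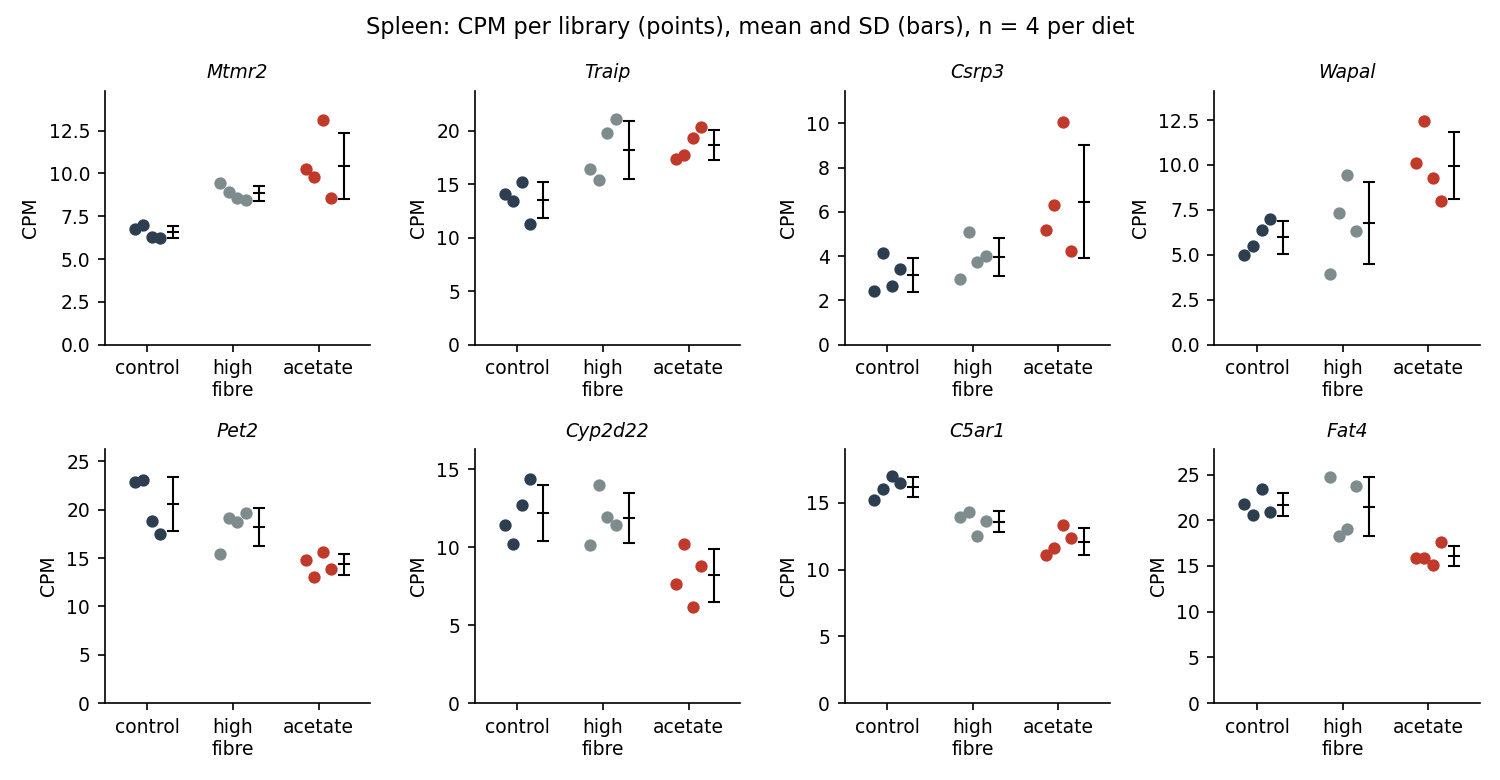
CPM by library in control, high fibre and acetate spleen for 8 of the named genes, a point per library with the mean and SD beside it (n = 4), each axis starting at 0. At Mtmr2 the acetate points lie between 8.57 and 13.1 CPM and the controls between 6.24 and 6.99, while at Fat4 all acetate points lie below all others.

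The genes through which acetate is sensed and used showed no called window, and their estimates were small. Of 37 genes that sense or carry short-chain fatty acids or that handle acetate 28 were tested. By edgeR 0 passed the adjusted threshold and 0 had an unadjusted p under 0.05, while their median log2 fold change was 0.03 beside -0.0050 for all windows and their range -0.29 to 0.31. Ffar2, whose promoter is printed above, gave 47.2, 43.6, 40.4 and 50.5 CPM with acetate and 63.5, 39.4, 49.0 and 41.1 in the controls, from 209 to 454 and 277 to 444 reads. The acetate libraries lay inside the control range (log2 fold change -0.08, 95% interval -0.38 to 0.23). Ffar3, its neighbour on chromosome 7 and the second acetate receptor, gave 32.7, 27.5, 38.5 and 29.9 CPM against 37.7, 24.4, 32.0 and 32.1 (0.03, interval -0.26 to 0.32). Hcar2, a hydroxycarboxylic acid receptor that also binds butyrate, gave 32.3 ± 4.20 against 35.0 ± 3.78 CPM (-0.10, interval -0.35 to 0.15). All 3 receptors overlapped between groups, and each interval excludes a difference of 1.5-fold.

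Acss2, the cytosolic and nuclear acetyl-CoA synthetase, gave 6.24 ± 0.896 against 6.10 ± 0.517 CPM (log2 fold change 0.04, interval -0.35 to 0.42). Acly, which makes acetyl-CoA from citrate, gave 113 ± 8.41 against 112 ± 5.80 CPM (0.0037). The mitochondrial synthetase Acss1 (5.196 ± 0.593 against 6.37 ± 1.05 CPM, -0.29, 95% interval -0.73 to 0.15) and the peroxisomal thioesterase Acot8 (8.59 ± 0.924 against 6.84 ± 0.848 CPM, 0.31, 95% interval -0.064 to 0.68) were the outermost of the list. The lactate and acetate carrier Slc16a1 was below the filter.

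Among genes of DNA methylation and demethylation 23 of 27 were tested, 0 were called by edgeR and the median log2 fold change was 0.02. At an unadjusted p under 0.05, 1 was higher and 0 lower, beside 1.87% and 1.64% of all windows. Dnmt1, the maintenance enzyme, gave 20.5, 20.8, 21.1 and 21.6 CPM with acetate and 18.6, 19.19, 21.97 and 19.3 in the controls (0.08, interval -0.16 to 0.33). Dnmt3a gave 112 ± 7.40 against 112 ± 9.57 CPM (0.0046, interval -0.22 to 0.23), and Tet1 66.0 ± 3.21 against 67.2 ± 7.83 CPM (-0.02). These windows, which hold many reads, were level between the groups, while Tet2 was below the filter. Mat2b, a regulatory subunit of the enzyme that makes the methyl donor S-adenosylmethionine, gave 6.56, 7.54, 10.1 and 5.79 CPM against 5.26, 4.04, 4.53 and 5.65 (0.58, SE 0.23, 95% interval 0.11 to 1.06). Mat2a, the catalytic subunit, had the lowest estimate of the list and few reads, at 0.944 ± 0.333 against 1.76 ± 1.07 CPM (-0.80, SE 0.43, 95% interval -1.68 to 0.07), with overlapping groups.

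Histone acetylation genes, the deacetylases, sirtuins, acetyltransferases and readers, were tested in 28 of 30 cases, with 0 called and a median of 0.02. At an unadjusted p under 0.05, 1 was higher and 0 lower, beside 1.87% and 1.64% of all windows. Hdac10, a deacetylase that acts on polyamines, was the 1 higher window, with 3.14, 4.28, 3.09 and 2.56 CPM against 1.96, 2.46, 1.55 and 1.04 from 7 to 25 reads (log2 fold change 0.77, SE 0.31, 95% interval 0.14 to 1.41). Hdac3, a corepressor deacetylase, gave 14.3 ± 3.47 against 14.5 ± 3.44 CPM (-0.02). Sirt5, a mitochondrial deacylase, gave 34.5 ± 3.70 against 39.3 ± 5.02 CPM (-0.18, 95% interval -0.45 to 0.09). Of the acetyltransferase genes, Ep300 gave 9.58 ± 2.80 against 8.45 ± 0.449 CPM (log2 fold change 0.17, 95% interval -0.21 to 0.54) and Kat2b 36.4 ± 2.44 against 35.3 ± 2.10 CPM (0.05, 95% interval -0.18 to 0.27), with overlapping groups at both.

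B cell genes, of which 21 of 25 were tested, had 0 calls and 2 windows higher at an unadjusted p under 0.05, beside 1.87% of all windows, and a list median of 0.10 (0.08 after cyclic loess). Pax5, the B lineage commitment factor, gave 7.52, 8.56, 7.93 and 6.79 CPM with acetate against 3.46, 6.10, 6.40 and 6.39. The groups did not overlap, and control replicate 1 was low (log2 fold change 0.42, SE 0.20, 95% interval 0.0017 to 0.84). Ighm, the IgM heavy chain constant region, gave 14, 12, 7 and 15 reads against 13, 7, 7 and 2 (0.83, SE 0.39, 95% interval 0.023 to 1.64). Cd79a, a signalling chain of the B cell receptor, was level (8.32 against 8.27 CPM).

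T and NK cell genes (22 of 29 tested) had 0 calls and a median of 0.06. At an unadjusted p under 0.05 they had 1 higher and 0 lower window, beside 1.87% and 1.64% of all windows. Gzma, a granzyme of killer cells, gave 2.05, 2.24, 2.90 and 1.78 CPM against 0.902, 1.38, 0.662 and 1.34 (0.89, SE 0.39, 95% interval 0.093 to 1.68), from 6 to 16 reads a library. Cd3e, Cd4 and Cd8a had log2 fold changes of 0.0031, 0.08 and 0.03. Regulatory and helper T cell genes (28 of 35 tested) had 0 calls, and 0 higher and 1 lower at that unadjusted threshold (1.64% of all windows lower). That one was Foxp3, the X-linked factor of regulatory T cells, with 8.20, 6.52, 5.80 and 6.90 CPM against 7.67, 8.76, 9.38 and 9.95. Acetate replicate 1 lay among the controls (-0.36, SE 0.17, 95% interval -0.72 to -0.0014), and high fibre gave 7.86 to 11.9 CPM. Ctla4, an inhibitory receptor that these cells carry, gave 4.07 ± 0.878 against 5.52 ± 1.43 CPM (-0.40, 95% interval -0.90 to 0.11), and Il10, an anti-inflammatory cytokine, 2.93 ± 0.814 against 2.30 ± 0.548 CPM (0.28, 95% interval -0.39 to 0.96).

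Myeloid genes (30 of 40 tested) had 0 calls and a median of -0.03. At an unadjusted p under 0.05 they had 0 higher and 1 lower window, beside 1.87% and 1.64% of all windows. Mrc1, the mannose receptor of macrophages, gave 16.7, 15.3, 14.7 and 13.5 CPM against 15.5, 21.8, 18.99 and 17.5 (-0.30, SE 0.14, 95% interval -0.60 to -0.0085), with overlap through control replicate 1. Cx3cr1, the fractalkine receptor, gave 11.2 to 12.7 against 12.9 to 16.3 CPM (-0.27, 95% interval -0.56 to 0.015). Erythroid and platelet genes (20 of 26 tested) had 0 calls and 0 at an unadjusted p under 0.05, with Slc4a1, the red cell anion exchanger, at 0.20. Splenic stroma and endothelium (26 of 30 tested) had 0 calls and 1 higher window at an unadjusted p under 0.05, beside 1.87% of all windows. It was Myh11, the smooth muscle myosin, with 3.69, 5.10, 4.45 and 2.34 CPM against 1.65, 2.85, 1.32 and 1.63 (0.91, SE 0.32, 95% interval 0.25 to 1.57), and its groups overlapped.

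MHC and interferon genes (27 of 33 tested) had 0 calls and 1 higher window at an unadjusted p under 0.05, beside 1.87% of all windows. B2m, the light chain of MHC class I, gave 16, 12, 13 and 17 reads against 4, 15, 7 and 5 (1.07, SE 0.39, 95% interval 0.26 to 1.87), and its groups did not overlap in CPM. Irf7, the interferon master regulator, gave 6.54 ± 0.846 against 5.01 ± 1.48 CPM (0.41, 95% interval -0.039 to 0.86). Cytokine and chemokine genes (24 of 32 tested) had 0 calls and 0 at an unadjusted p under 0.05, with Il12b at 0.46 and Ccl2 at 0.52. Blood pressure and renin-angiotensin genes (32 of 34 tested) had 0 calls and 1 higher window at an unadjusted p under 0.05, beside 1.87% of all windows. It was Nppa, atrial natriuretic peptide, at 5.25 ± 0.983 against 3.40 ± 1.05 CPM (0.54, 95% interval 0.044 to 1.05). Ren1, the renin gene, was at 0.07 and Ace, angiotensin-converting enzyme, at -0.16. Cardiomyocyte genes, which spleen cells should not use, had 0 calls in 25 tested, 2 higher at an unadjusted p under 0.05 (Csrp3 and Nppa, beside 1.87% of all windows) and 1 lower (beside 1.64%), Myh7, at 50.9 ± 4.21 against 62.7 ± 2.56 CPM (-0.30, 95% interval -0.53 to -0.058).

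**Figure D4:**
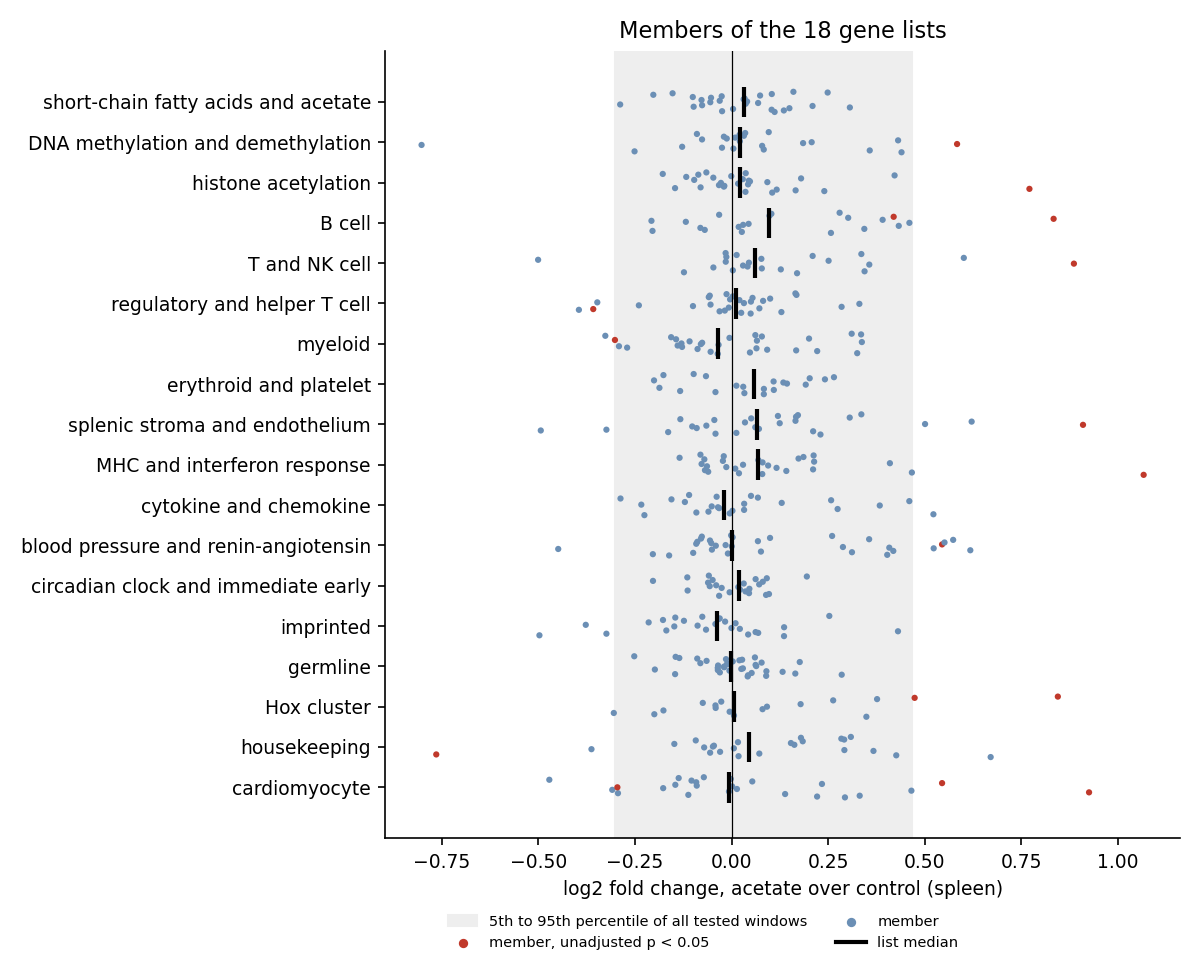
Log2 fold change of acetate over control spleen for each tested member of the 18 gene lists, a point per gene, a black bar at the list median, red for an unadjusted p under 0.05. The list medians lie between -0.04 and 0.10, and the grey band, which holds the 5th to 95th percentile of single tested windows, is drawn for the spread of the points and not for the medians.

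All list medians lay between -0.04 and 0.10 with the normalisation used. When raw library totals set the scale, the median of all windows moved to 0.17 and the list medians to 0.13 to 0.27, and relative to all windows the lists stayed between -0.04 and 0.10. The signs given above for lists and genes near 0 therefore hold only relative to the bulk of windows.

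Windows with the fewest reads stood apart from the rest. Tested windows were split by abundance into 10 groups of equal size. In the lowest group (2487 windows, median log2 CPM 0.77) the median log2 fold change was 0.24, and 150 windows were higher and 12 lower with acetate at an unadjusted p under 0.05. The second group had a median of 0.12, with 75 higher and 17 lower. In group 7 the median was -0.03 with 26 higher and 84 lower, and in the highest group it was -0.04 with 2 higher and 12 lower. Among tested windows, low ones were thus mostly higher, and abundant ones slightly lower, with acetate. A window near the limit of the filter on low counts could pass it through the acetate libraries alone. The filter can therefore add higher windows to the lowest groups, and how many it added was not tested. The library measures that accompanied this were a lower share of Gm10800 reads (51.9% against 55.8%) and a lower total (6.11 against 8.48 M reads) in the acetate group, neither beyond the spread. With all libraries thinned to an equal number of reads outside the 5 largest windows the median of the lowest group was 0.25. It was 0.0027 after cyclic loess normalisation, which removes a trend with abundance, 0.13 with 1 surrogate variable and 0.44 with the covariate for a number above 10. The last of these rests on high fibre replicate 4. Leaving out a library gave 0.12 (without acetate replicate 2) to 0.34 (without acetate replicate 4), with 0.15 without control replicate 1, 0.33 without control replicate 2 and 0.22 without acetate replicate 3. Without acetate replicates 2 and 3 together it was 0.08. Named genes with higher signal and few reads (Parp12, Ddit4, Diap2, B2m, Gzma) lay in this range of abundance, and how much of their difference the trend carries was not tested.

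**Figure D5:**
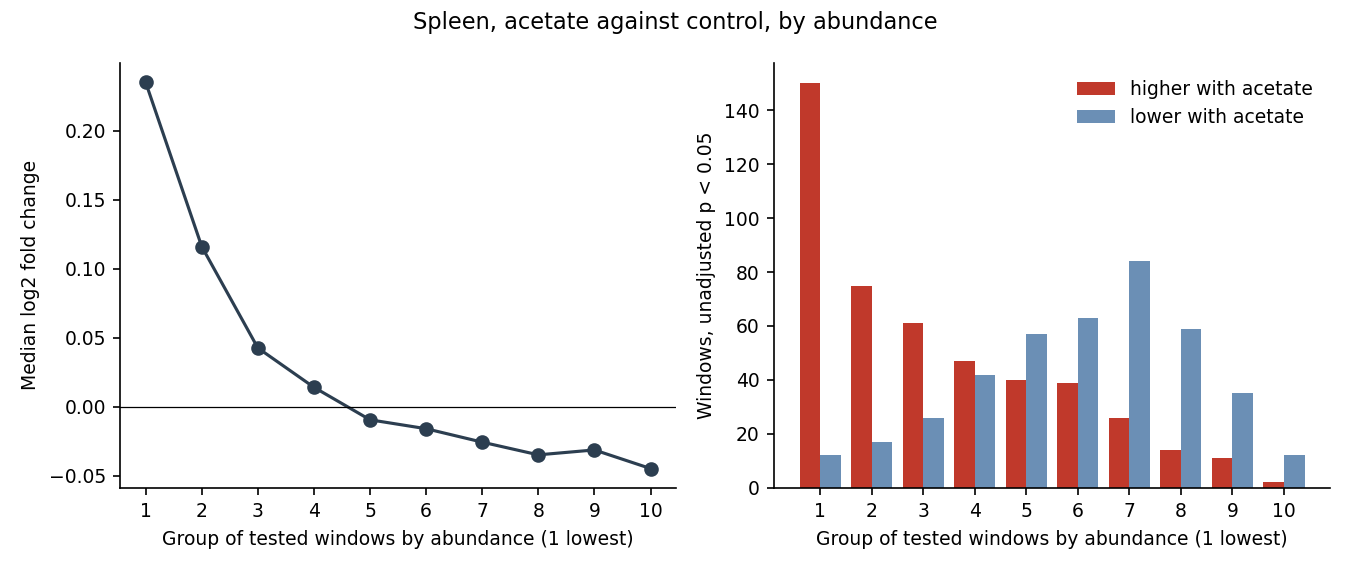
Left, median log2 fold change of acetate over control (y axis) in each of 10 groups of tested windows by abundance (x axis, lowest to highest). Right, the numbers of windows higher and lower at an unadjusted p under 0.05. The median goes from 0.24 in the lowest group to -0.04 in the highest, and higher windows outnumber lower ones only in the 4 lowest groups.

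The most abundant windows were those of Gm10800, Gm10801, Gm21738, Gm11168 and Gm10717, all predicted genes. Over all spleen libraries they took 54.5%, 4.71%, 0.947%, 0.239% and 0.199% of reads. Their log2 fold changes were -0.30, -0.33, -0.30, -0.26 and -0.32, with unadjusted p-values of 0.0787, 0.0318, 0.0522, 0.0792 and 0.0263 and adjusted p-values of 0.999 by edgeR. With 1 surrogate variable in the fit all 5 were called lower, with adjusted p-values by edgeR from 0.00337 to 0.0391. In each of the 5 the acetate and control libraries overlapped. Since they are near-identical repeats, reads cannot be divided between them with certainty.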

How the data were processed

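MethylMiner-captured genomic DNA was sequenced from 12 spleen and 11 left ventricle libraries. Per the submitters' processing notes, the build was GRCm38 and the tools were featureCounts 1.5.1, edgeR 3.16.5, BWA 0.7.10 and bcl2fastq 2.19.1.403. The deposited values are whole-number read counts per 3 kb window, not normalised by the authors per the file itself; how windows are placed around the start is not given in the sources used here. No table column lacked a sample, and no libraries had identical counts.

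The main test was edgeR 4.0.16 (R 4.3.3) with quasi-likelihood F tests, TMM factors, a filterByExpr minimum count of 10, a prior count of 2 for log2 fold changes and Benjamini-Hochberg adjustment at 0.05 over all tested windows. The 12 spleen libraries shared the spread. CPM used TMM-scaled totals. The fit of the tissue difference used all 23 libraries. Library-wide measures used exact permutation tests. Alternatives used limma 3.58.1, DESeq2 1.42.0, sva 3.50.0, other scalings and filters, and libraries left out. The code was tested on simulated data.

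Genes were named by rule: the 10 windows of smallest p-value in each direction, filled up by unadjusted p where too few passed; the 5 in each direction with the largest fold among separated windows above the median abundance; 12 genes of acetate response, methylation and immunity; and the 2 smallest p-values of each of 18 lists (580 genes). Symbols of predicted genes and duplicated symbols were skipped, and some genes the rule names are not reported here. The members and lists were chosen with earlier results of these data known. RefSeq positions matched 83.4% of tested windows. Promoters matched 52.0%, so a check of fold change against CG number was void and is not used.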

Additional observations from a re-analysis of the deposited data

Results flagged for a closer look

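Among 148 groups of 4 libraries, 5 (3.38%) held a library whose gap to the others exceeded Dixon's 95% limit for 4 samples (0.829 of the range). Chance flags about 1 in 20 groups. At Lhfpl5 acetate replicate 2 gave 14.3 CPM beside 21.7 to 22.8 in the other acetate libraries. At Sirt5 acetate replicate 4 gave 40.0 CPM beside 32.1 to 33.2. At Pax5 control replicate 1 gave 3.46 CPM beside 6.10 to 6.40. The top 1% of windows took 63.2% of reads in control replicate 2 and 68.2% to 69.1% in the other controls. Windows without a read made up 21.7% in acetate replicate 3 and 16.7% to 17.5% in the other acetate libraries.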

How the results depend on the processing

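Called windows numbered 0 as reported. There were 2 with only the 8 acetate and control libraries, 2 without a filter on low counts, 1 with cyclic loess, 1 with DESeq2, 1 with the replicate block, 1 after thinning to equal reads (chosen after seeing the data) and 17 (7 higher) with 1 surrogate variable. Leaving out a library gave 0 to 2, with 1 without control replicate 1 and 2 without high fibre replicate 4. Tbc1d2b was called in each of these settings; the second window, where 2 were called, was Gm22866, and the surrogate variable also called Gm22717, Gm15726, Ddx4, Mn1 and the 5 windows with the most reads, among others. Library totals, RLE and upper quartile scaling, voom, a minimum count of 30, the covariate for numbers above 10 and the fit without acetate replicates 2 and 3 gave 0. The covariate and that last fit were also chosen after seeing the data. The acetate effect differed between tissues at 0 windows under every alternative. These included a block for the number in the title (2337 at an unadjusted p under 0.05), which treats heart and spleen libraries numbered alike as belonging together.

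Acetate and control spleen libraries of the same replicate (r from -0.075 to 0.32) did not match more closely than those of different replicates (-0.37 to 0.46). The replicate is not the number in the title, which no acetate library shares with a control. What else libraries of the same replicate may share was not tested. The replicate block moved the calls from 0 to 1 (Tbc1d2b, adjusted p = 0.0230 by edgeR) and windows at an unadjusted p under 0.05 from 872 to 1297.

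The difference in total count was -3.004 to -1.79 M reads when a library was left out; without acetate replicate 4 it was -3.004 with an exact permutation p of 0.0286. The germline minus housekeeping difference was -0.157 to 0.0625 with a library left out and 0.0558 by medians. The log2 fold change of Tbc1d2b, -1.002 as reported, was 0.0250 with a covariate for a number above 10, which every acetate library and 1 high fibre library carry. That value rests on the 1 high fibre library against the other high fibre libraries. The other log2 fold changes that reversed are as follows, and the cause was not tested. With library totals Ffar2 was 0.116, Hcar2 0.0806, Hdac3 0.146, Sirt5 0.00652 and Rora 0.0590. Without a filter Ffar3 was -0.0200, Acss2 -0.00988 and Dnmt3a -0.0468. With the number covariate Ffar2 0.0119, Ffar3 -0.0443, Dnmt3a -0.0432 and Nkg7 -0.107. With a surrogate variable Ffar2 was 0.0425 and Hdac3 0.0123, and with cyclic loess Hdac3 was 0.0134. Thinned, Acss2 was -0.192 and Rorb -0.0146. Without acetate replicates 2 and 3 Ffar2 was 0.01997 and Ffar3 -0.00843. With a library left out Ffar2 ranged from -0.169 to 0.0756, Ffar3 from -0.0813 to 0.123, Acss2 from -0.0618 to 0.0999, Dnmt3a from -0.0324 to 0.0598 and Hdac3 from -0.156 to 0.116. Windows with few reads, with interval half-widths near 0.83 on the log2 scale, could hide differences well above 1.5-fold.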

Other observations

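Imprinted genes, whose methylation depends on the parent of origin, were tested in 26 of 36 cases, with 0 calls by edgeR and 0 at an unadjusted p under 0.05, and a median log2 fold change of -0.04. Mest gave 7.06 ± 0.804 CPM with acetate against 9.19 ± 2.26 (SD, n = 4 each; log2 fold change -0.38, 95% interval -0.77 to 0.0098), and H19, an imprinted noncoding RNA gene, 3.70 ± 0.871 against 2.70 ± 1.04 CPM (0.43, 95% interval -0.16 to 1.02). Germline genes, commonly methylated in somatic tissue, had 36 of 40 tested, 0 calls and a median of -0.0014. Ddx4, a germ cell helicase, gave 36.9, 31.2, 32.3 and 56.5 CPM against 56.4, 20.3, 27.6 and 27.2, so that 1 library of each group stood high. Hox genes had 17 of 39 tested, 0 calls and 2 higher at an unadjusted p under 0.05, beside 1.87% of all windows: Hoxd8 (2.73 ± 0.675 against 1.34 ± 0.521 CPM, log2 fold change 0.84, 95% interval 0.17 to 1.52) and Hoxd3 (9.46 ± 3.05 against 6.54 ± 1.25 CPM, 0.47, 95% interval 0.065 to 0.88), whose windows each have the start of another gene within 3 kb. Circadian clock and immediate early genes had 24 of 30 tested, 0 calls and 0 at an unadjusted p under 0.05, with Rorb at 0.19 and Rora at -0.11. Housekeeping genes had 24 of 30 tested, 0 calls, and 1 lower window at an unadjusted p under 0.05 (1.64% of all windows), Emc7 (1.51 ± 0.534 against 2.67 ± 0.995 CPM, -0.76, 95% interval -1.47 to -0.062). By chromosome, the share of windows at an unadjusted p under 0.05 ran from 2.57% on chromosome 10 to 4.55% on chromosome 18, and median log2 fold changes from -0.02 to 0.01.

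The window of Gm15726, a predicted gene picked here after its values were seen, varied widely between libraries of a group. In spleen it gave 36.2, 27.1, 71.7 and 10.7 CPM with acetate and 12.5, 53.3, 42.7 and 157 CPM in the controls, and the log2 fold change was -0.88 (SE 0.46, 95% interval -1.84 to 0.071). In heart the controls with the same numbers gave 11.7, 43.3, 24.9 and 81.0 CPM, so control 1 was lowest and control 4 highest in both tissues. Heart acetate libraries gave 37.0, 17.2 and 44.2 CPM, in the same order as the spleen libraries numbered alike. High fibre replicate 4 was the lowest of its group in both tissues, at 13.0 CPM in spleen and 5.88 in heart. The labels do not say whether libraries numbered alike come from 1 mouse. Over all windows tested in both tissues, deviations from the group mean gave a mixed picture. Same-numbered spleen and heart controls 1 to 4 correlated at r 0.25, 0.17, 0.034 and 0.0039. Differently numbered controls ran from -0.21 to 0.12. Acetate libraries 11, 12 and 17 gave -0.0011, 0.30 and 0.055, and spleen 12 with heart 17 also gave 0.30. Differently numbered acetate libraries ran from -0.38 (spleen 12 with heart 11) to 0.42 (spleen 18 with heart 11), the highest value of all these pairs. Mn1, a transcriptional regulator gene also picked after its values were seen, gave 51.3, 46.1, 44.3 and 78.7 CPM with acetate and 33.1, 13.5, 48.6 and 35.7 in the controls (log2 fold change 0.76, SE 0.24, 95% interval 0.27 to 1.26), and the groups overlapped through control replicate 3.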
